A study of Mus musculus with 6 samples.

Results

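The read pairs described here join an intron of a protein-coding gene to another place in the same gene. They were taken from MARIO libraries of mouse embryonic stem (ES) cells. In MARIO, RNA is crosslinked to protein, a linker tagged with biotin is added to the free RNA ends, and neighbouring ends are ligated, so that 1 molecule carries a first fragment (RNA1), the linker and a second fragment (RNA2). A line was counted where both fragments were labelled protein coding and carried the same gene name, at least 1 of them was labelled intron, and both sequences were at least 40 nt long. Lines with equal coordinates and strands were then collapsed to 1 pair. This left 236052 intronic pairs from the 7844863 lines of 3 libraries, in a series of 10479650 lines and 6 libraries. ES-1 and ES-2 were separate assays on E14 cells of strain 129/Ola, crosslinked with ultraviolet light of 254 nm and fragmented with RNase I. ES indirect, 1 library of the same line, was fixed by formaldehyde together with EGS, which also tie protein to protein, and was sonicated. The labels give a first cut of the RNA to about 1000 nt for all 3, whereas the study's methods give a wider range, with longer pieces, for ES-1. Ribosomal RNA was depleted from ES-2 with the GeneRead kit, and from the other libraries with a duplex-specific nuclease. The recovered RNA was treated with DNase. Crosslinking and fragmentation therefore differ together between ES and ES indirect, and their effects cannot be told apart.

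A gene is copied into pre-mRNA, in which introns separate the exons until the spliceosome removes them. Introns make up most of the length of a typical mouse gene, and most are degraded soon after splicing, although some carry small nucleolar RNAs (snoRNAs) that are trimmed out and kept. Because only 1 DNA strand of a gene is copied into its pre-mRNA, the strand of a fragment shows whether it can be that gene's transcript.

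The following fragments show what such pairs look like. The first 5 belong to the 5 genes with the most intronic pairs, each represented by the pair with the most deposited lines, and the others were found in over 1 library, of which Rpl23 was chosen after its values were seen. Each sequence is that of NCBIM37 (mm9) at the stated place, written 5′ to 3′ along the RNA. Capitals mark the longest unbroken run of complementary bases, G-U pairs included, in the duplex that RNAduplex predicted between the fragments.
Fgfr2 RNA1: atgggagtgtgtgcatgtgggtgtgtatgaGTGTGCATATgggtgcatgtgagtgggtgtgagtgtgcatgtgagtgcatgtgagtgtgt
Fgfr2 RNA2: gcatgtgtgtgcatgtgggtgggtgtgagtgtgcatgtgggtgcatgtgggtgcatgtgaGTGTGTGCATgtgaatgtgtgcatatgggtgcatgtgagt
Gm20388 RNA1: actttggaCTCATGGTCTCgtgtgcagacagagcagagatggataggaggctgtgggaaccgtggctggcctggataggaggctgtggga
Gm20388 RNA2: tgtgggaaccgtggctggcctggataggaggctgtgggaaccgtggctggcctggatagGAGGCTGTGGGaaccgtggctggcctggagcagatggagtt
Agap1 RNA1: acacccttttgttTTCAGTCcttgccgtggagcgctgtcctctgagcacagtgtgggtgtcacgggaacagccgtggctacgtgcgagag
Agap1 RNA2: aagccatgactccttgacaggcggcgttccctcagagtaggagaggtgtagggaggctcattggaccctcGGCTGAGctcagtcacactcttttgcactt
Msi2 RNA1: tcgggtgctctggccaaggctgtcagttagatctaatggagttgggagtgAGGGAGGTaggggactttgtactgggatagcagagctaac
Msi2 RNA2: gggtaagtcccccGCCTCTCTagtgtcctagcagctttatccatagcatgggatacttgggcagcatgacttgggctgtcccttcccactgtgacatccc
Arl15 RNA1: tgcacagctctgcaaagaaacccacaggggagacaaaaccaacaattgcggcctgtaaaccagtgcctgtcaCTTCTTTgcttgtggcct
Arl15 RNA2: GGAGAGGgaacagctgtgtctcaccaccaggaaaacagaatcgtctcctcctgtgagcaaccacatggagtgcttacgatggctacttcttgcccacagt
Drosha RNA1: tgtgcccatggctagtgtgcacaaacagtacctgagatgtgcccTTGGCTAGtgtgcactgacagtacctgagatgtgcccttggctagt
Drosha RNA2: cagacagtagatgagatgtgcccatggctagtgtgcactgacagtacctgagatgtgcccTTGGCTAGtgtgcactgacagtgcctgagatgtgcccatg
Sipa1l3 RNA1: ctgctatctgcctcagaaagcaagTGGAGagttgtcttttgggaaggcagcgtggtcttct
Sipa1l3 RNA2: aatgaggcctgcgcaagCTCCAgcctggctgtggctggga
Trrap RNA1: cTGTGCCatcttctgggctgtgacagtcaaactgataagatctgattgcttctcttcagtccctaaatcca
Trrap RNA2: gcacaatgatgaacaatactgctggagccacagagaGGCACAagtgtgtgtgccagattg
Gpi1 RNA1: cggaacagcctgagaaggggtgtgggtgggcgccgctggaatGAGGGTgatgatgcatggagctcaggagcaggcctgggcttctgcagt
Gpi1 RNA2: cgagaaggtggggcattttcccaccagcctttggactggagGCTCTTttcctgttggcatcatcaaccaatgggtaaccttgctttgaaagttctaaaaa
Rpl23 RNA1: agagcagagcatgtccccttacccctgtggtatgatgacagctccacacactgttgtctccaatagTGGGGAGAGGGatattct
Rpl23 RNA2: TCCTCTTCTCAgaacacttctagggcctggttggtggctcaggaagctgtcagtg

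In the leading genes the fragments lay next to each other. Those of Fgfr2, which encodes a receptor for fibroblast growth factors, abutted at chr7:140025190-140025279 and chr7:140025090-140025189 on the minus strand, with 25 lines in ES indirect and 0 mismatches of the reads to the reference. Those of Gm20388, at chr8:126182049-126182138 and chr8:126182132-126182231, overlapped by 7 bases and had 50 lines. In both of these pairs the fragments shared a run of at least 12 bases. The pair of Agap1, which encodes a GTPase-activating protein for Arf, lay at chr1:91418805-91418894 and chr1:91418901-91419000, 6 bases apart. The pair of Msi2, which encodes an RNA-binding protein, lay at chr11:88334331-88334420 and chr11:88334220-88334319 on the minus strand, 11 bases apart, with 52 lines. The pair of Arl15, an ARF-like GTPase, lay at chr13:114636701-114636790 and chr13:114636809-114636908 and was the only pair of the 5 from ES-1. All 5 lay within 1 intron, and in each RNA1 was upstream of RNA2. The printed pairs of Drosha, Sipa1l3, Trrap, Gpi1 and Rpl23 are described further on. Recurrence was searched among reversed and distant pairs alone, so their order follows from that choice.

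The labels were checked first. All 12 ES cell markers had fragments in each library, 2090, 505 and 7579 in all in ES-1, ES-2 and ES indirect. The 12 fibroblast markers had 1295, 327 and 1156 fragments, and 10 or 11 of them had any. The sequences of all 11776, 4964 and 219309 pairs with a labelled region at both ends matched mm9 at both stated places with at most 15% mismatches. The sequence column read the plus strand whatever the strand column said, and the strand column of RNA2 was opposite to that of its RNA. The statements on strand below rest on this reading, which exon-exon pairs of the same genes gave.

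Intronic pairs were 16406 of 3230403 lines in ES-1 (0.508%), 5090 of 1312314 lines in ES-2 (0.388%) and 687591 of 3302146 lines in ES indirect (20.8%). Collapsing removed 28.2%, 2.48% and 68.1% of these lines, and left 11776, 4964 and 219312 pairs. Of all pairs that joined 1 intron fragment to another, 93.2%, 95.6% and 93.5% stayed within 1 gene. Both ends were intronic in 10803 pairs of ES-1 (91.7%, 95% Wilson interval 91.2 to 92.2), 4483 of ES-2 (90.3%, 89.5 to 91.1) and 210051 of ES indirect (95.8%, 95.7 to 95.9). The others, 973, 481 and 9258 pairs, joined an intron to an exon, apart from 3 pairs of ES indirect with no region given for 1 end. The exonic end of these lay in a 5′ untranslated region in 14.4%, 15.4% and 21.8% and in a 3′ untranslated region in 12.02%, 8.94% and 14.1%. Intervals in the text cover counting error only, since the files keep no molecular identifier.

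Pairs fell into 4 arrangements. In a facing pair RNA1 lay upstream of RNA2, without overlap, in an outer span of at most 2000 bases, which is also what 1 unbroken piece read from both ends would give. In an overlapping pair the ends shared bases. In a reversed pair RNA1 lay downstream of RNA2, and in a distant pair RNA1 lay upstream with an outer span over 2000 bases. Facing and overlapping pairs made up 98.3% of intron-intron pairs in ES-1, 98.8% in ES-2 and 88.5% in ES indirect. Reversed and distant pairs together made up 1.31% (141 pairs), 0.825% (37 pairs) and 11.4% (23902 pairs). Another 43, 19 and 179 pairs had their ends on different strands. The files do not record the linker of a pair, so a ligated facing pair and an unbroken piece cannot be told apart. ES-1 and ES-2 thus held few intronic pairs that 1 unbroken RNA could not give, and ES indirect held many more.

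The strand of intron-intron pairs differed with the library. In ES-1, 5624 of 10712 lay on the gene's strand (52.5%, 51.6 to 53.4), in ES-2 2260 of 4448 (50.8%, 49.3 to 52.3), and in ES indirect 180832 of 209154 (86.5%, 86.3 to 86.6). Exon-exon pairs of 1 gene, counted the same way, lay on the gene's strand in 91.2%, 71.6% and 90.05%. The intron-intron share was the lower in each of the 3 libraries, by a mean of 21.0 percentage points (SD 17.5, n = 3 libraries). An exact sign-flip permutation test over libraries, two-sided, gave p = 0.25, the smallest p that 3 libraries allow. Without ES-1 the mean difference was -12.2 points. The direction in ES indirect did not hold under every setting. There the intron-intron and exon-exon shares were 92.8% and 91.7% with every line counted, 96.2% and 95.8% over reversed and distant pairs, and 96.2% and 93.0% on flow cell 2. The exact permutation test over the 3 libraries gave p = 0.5 under each of these settings. Sense fragments are those of the gene's strand, and antisense fragments those of the other. Among facing intron-intron pairs ES-1 had 48.8% sense and ES-2 50.2%, so that each held about as many antisense as sense pairs. Antisense pairs do not carry the sequence of the named gene's pre-mRNA, and their source was not tested. Leaving out pairs under a gene of the other strand moved the facing shares to 48.7% and 50.4%.

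The share was higher in the other arrangements, apart from the 10 distant pairs of ES-2. Overlapping intron-intron pairs were sense in 72.9%, 57.8% and 94.8% of cases in ES-1, ES-2 and ES indirect. Reversed pairs were sense in 94 of 111 cases in ES-1 (84.7%, 76.8 to 90.2), 19 of 27 in ES-2 (70.4%, 51.5 to 84.1) and 18938 of 19666 in ES indirect (96.3%, 96.0 to 96.6). Distant pairs were sense in 23 of 29, 5 of 10 and 3980 of 4146 cases (96.0%). The facing shares were 48.8% in ES-1, 50.2% in ES-2 (48.7 to 51.8) and 81.1% in ES indirect. Read pairs of 1 library are not replicates, and several can come from the same place, such as the 9 reversed pairs of Rpl23 in ES-1. The intervals of facing and reversed pairs therefore give no test of their difference, which in ES-2 rests on 27 reversed pairs.

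**Figure D1:**
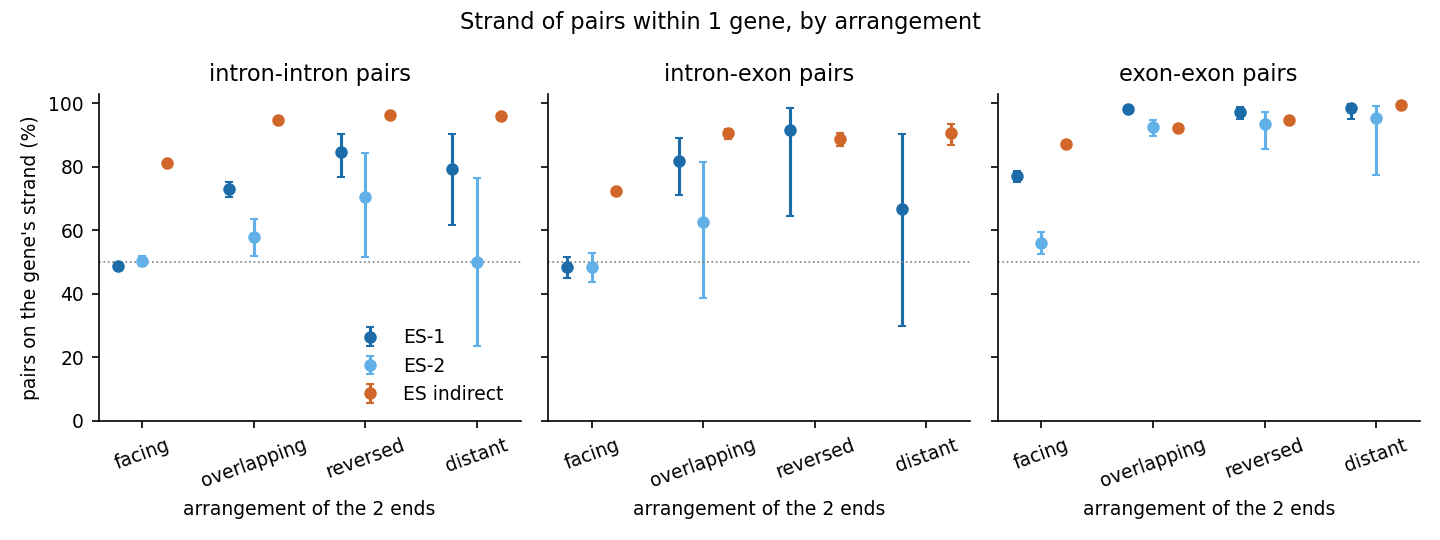
Percentage of pairs within 1 gene on the gene's strand (y axis) by arrangement of the ends (x axis), for intron-intron, intron-exon and exon-exon pairs. Points are libraries, bars are 95% Wilson intervals, arrangements with under 5 pairs are left out, and the dotted line is 50%. Facing intronic pairs of ES-1 and ES-2 sit at 48.8% and 50.2% sense, and reversed pairs of ES indirect at 96.3%.

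Strand was then set against how often a gene's exons were caught. Genes were grouped by their sense exon-exon pairs in ES-1, a readout of spliced or exonic RNA that the choice of intronic pairs did not use. Pairs were counted per Mb of intron. The grouping itself used strand, and for ES-1 the same library, so it is not independent of the sense levels below. In ES indirect the sense level was 143 pairs per Mb in the 16039 genes with 0 such pairs, 362 in the 2183 genes with 1, 562 in the 937 genes with 2 to 4, and 1005 in the 198 genes with 5 or more. The antisense level in the same groups was 31.5, 36.1, 35.2 and 42.8 pairs per Mb. Sense pairs therefore climbed with the exonic pairs while antisense pairs stayed in a narrow range, and the sense share went from 81.9% to 95.9%. In ES-1 the sense level was 5.95, 8.13, 10.1 and 15.0 pairs per Mb and the antisense level 5.63, 7.10, 7.20 and 8.81, with sense shares from 51.4% to 63.1%. In ES-2 the sense levels were 2.50, 3.12, 3.65 and 4.40 and the antisense levels 2.42, 3.20, 3.67 and 3.73 pairs per Mb. In ES-2 the sense and antisense levels stayed close to each other in every group.

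**Figure D2:**
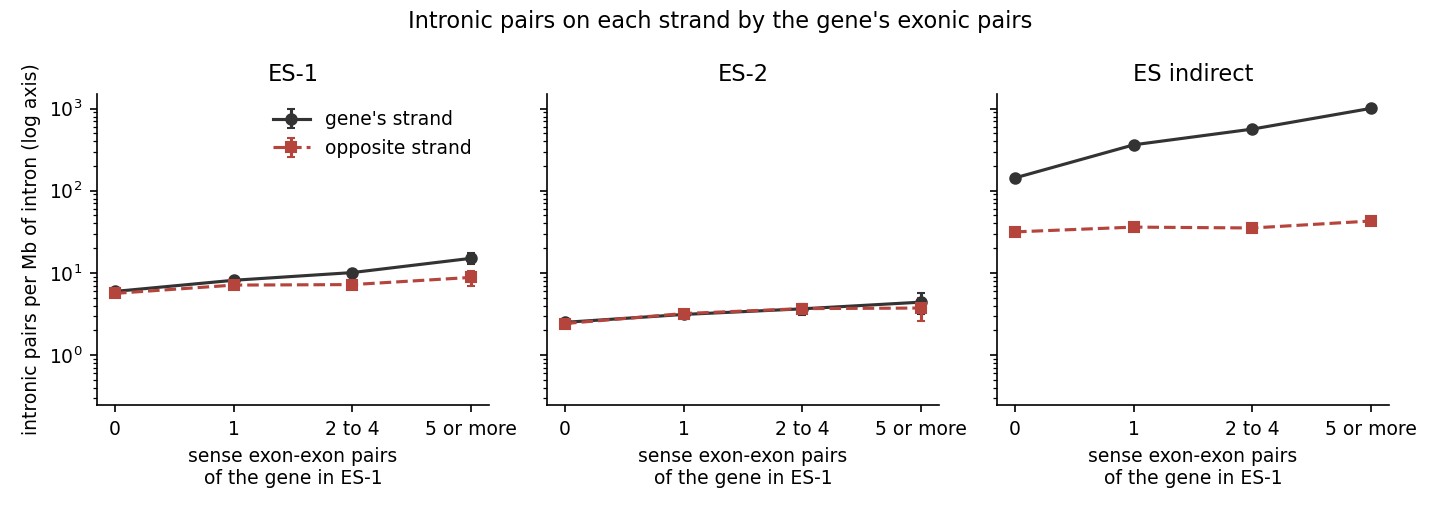
Intronic pairs per Mb of intron (log axis) on the gene's strand and on the opposite strand, for genes grouped by their sense exon-exon pairs in ES-1 (x axis), 1 panel per library. Bars are 95% intervals from Poisson counting error. In ES indirect the sense level runs from 143 to 1005 pairs per Mb and the antisense level from 31.5 to 42.8.

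The strand was then compared between gene lists. All genes with introns and a pair had 187949 sense and 30407 antisense pairs in ES indirect (86.1% sense), at 210 and 33.99 pairs per Mb. Sarcomere and synapse genes that ES cells are not known for, such as Cntnap2 and Ryr2, had 541 sense and 582 antisense pairs in ES indirect (48.2% sense, 45.3 to 51.1), at 24.7 and 26.5 pairs per Mb. Splicing factors had 506 sense and 23 antisense pairs (95.7%, 93.6 to 97.1), at 848 and 38.6 per Mb. Chromatin regulators had 1011 and 81 (92.6%), pluripotency genes 1101 and 108 (91.1%) and snoRNA host genes 294 and 17 (94.5%). Without Jarid2, which had the most pairs of its list, the pluripotency genes had 722 and 100. Esrrb, an orphan nuclear receptor gene, held 281 sense and 82 antisense pairs, and without it the list had 820 and 26. In ES-1 the sarcomere and synapse list had 64 sense and 69 antisense pairs and the snoRNA host list 35 and 2, or 6 and 2 without Rpl3. Splicing factors had 16 and 5 there, pluripotency genes 15 and 7, and chromatin regulators 17 and 12 (58.6% sense, 40.7 to 74.5), against 52.4% over all genes. In ES-2 the sarcomere and synapse list had 23 and 34, and every other list had at most 9 pairs.

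Within ES indirect the strand also differed between the 2 flow cells that its read names give. Flow cell 1 held 181251 pairs, 84.0% of them sense, and flow cell 2 held 140281 pairs, 96.0% of them sense, with 102223 pairs on both. Sense pairs numbered 151642 and 134121, and antisense pairs 28789 and 5644. The sarcomere and synapse list had 1096 pairs on flow cell 1 and 102 on flow cell 2, and the splicing factors had 409 and 389. Facing intronic pairs were sense in 79.6% and 95.9%, and reversed pairs in 95.8% and 96.2%. The shares of reversed pairs thus lay close together in both runs and those of facing pairs did not. The sarcomere and synapse list was sense in 48.3% and 52.9%, so that it differed in its number of pairs rather than in its strand. What differed between the runs was not tested. In ES-1 the flow cells gave 54.9% and 52.9% sense, and in ES-2 51.7% and 49.7%.

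**Figure D3:**
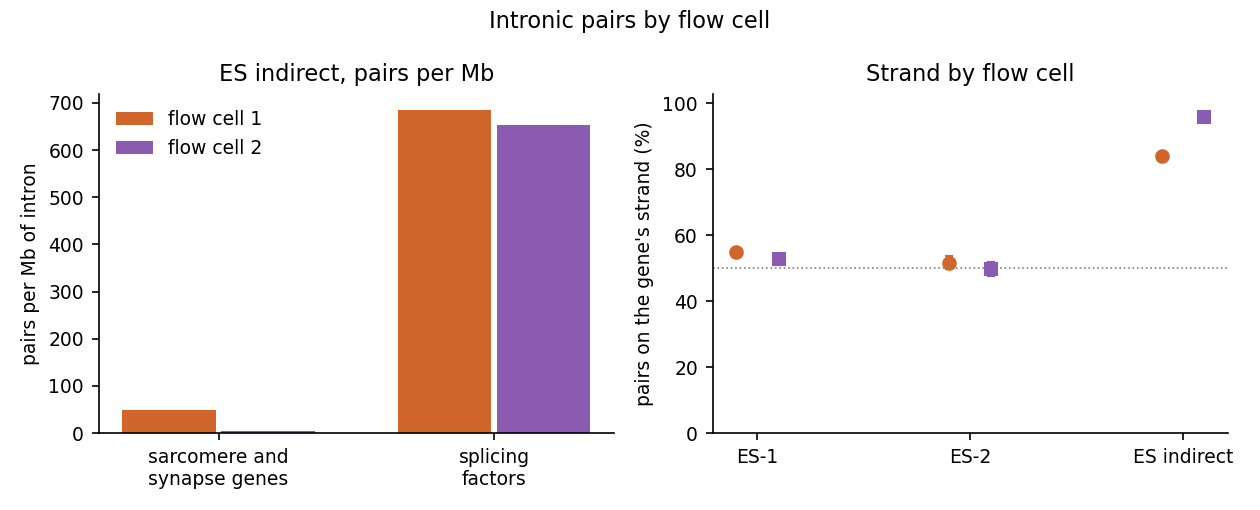
Left, intronic pairs of ES indirect per Mb of intron for sarcomere and synapse genes and for splicing factors, on each flow cell. Right, percentage of intronic pairs on the gene's strand by library and flow cell, with 95% Wilson intervals and a dotted line at 50%. Sarcomere and synapse genes have 49.9 pairs per Mb on flow cell 1 and 4.65 on flow cell 2, and splicing factors 686 and 652.

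Intronic pairs were spread over many genes, namely 5939 in ES-1, 3398 in ES-2 and 13391 in ES indirect, with medians of 1, 1 and 5 pairs per gene. The 100 leading genes of each library held 10.8%, 12.01% and 17.2% of its pairs. Long genes led the ranking. Across 13893 genes with introns and a pair in any library, the number of pairs and the number of intron bases had Spearman correlations of 0.51, 0.39 and 0.67 in ES-1, ES-2 and ES indirect, given as a description, since genes within a library share its depth.

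The first 2 genes of the ranking have models that hold other genes. Fgfr2 had 42, 20 and 1598 pairs in ES-1, ES-2 and ES indirect, and Gm20388 had 81, 51 and 1502. In GENCODE vM1 their models span 3.01 and 4.43 Mb and hold 31 and 72 other protein-coding genes. Of the pairs named Gm20388 in ES indirect 64.7% lay over such genes, where 467 were sense and 505 antisense to Gm20388, and elsewhere in its model 425 were sense and 104 antisense. Of those named Fgfr2 27.7% lay over such genes, 176 sense and 266 antisense, and elsewhere 1104 were sense and 51 antisense. Within the Fgfr2 model 186 pairs lay over Tacc2, which runs on the opposite strand, and 178 of them were antisense to Fgfr2 and so sense to Tacc2. The name in the files is thus uncertain for the pairs over other genes.

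The next 8 genes had models that hold no other protein-coding gene, and nearly all of their pairs were sense in ES indirect. Agap1 had 10, 4 and 999 pairs in ES-1, ES-2 and ES indirect, with 980 sense and 19 antisense in ES indirect. Msi2 had 5, 4 and 987, with 976 sense. Arl15 had 5, 2 and 856, with 845 sense. Wwox, which encodes an oxidoreductase with WW domains, had 17, 1 and 821, with 795 sense. Zfp704, a zinc finger gene, had 4, 0 and 740, with 733 sense. Magi1, which encodes a scaffold protein of cell junctions, had 9, 1 and 718, with 701 sense. Tiam1, an activator of the GTPase Rac, had 8, 0 and 655 with 648 sense, and Smyd3, a lysine methyltransferase gene, had 4, 6 and 655 with 636 sense. Each of these 8 had at most 17 pairs in ES-1 and at most 6 in ES-2.

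**Figure D4:**
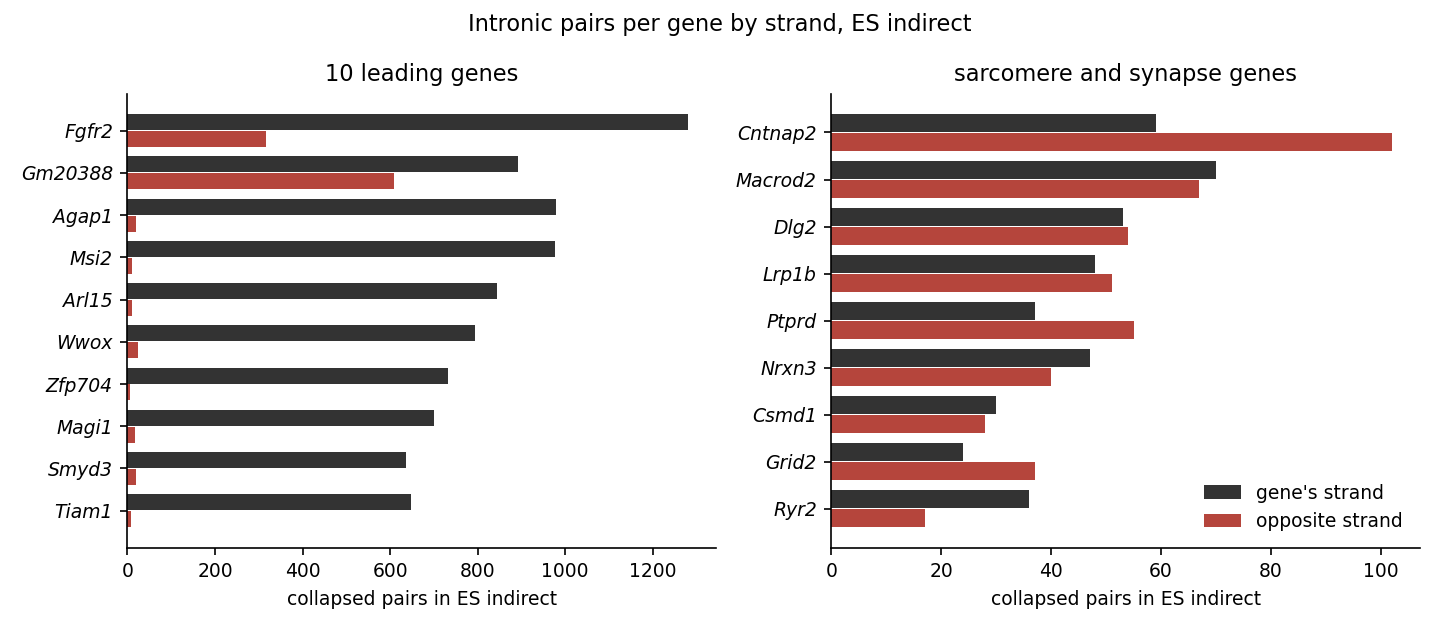
Collapsed intronic pairs in ES indirect on the gene's strand and on the opposite strand, for the 10 genes with the most pairs over the 3 libraries (left) and for the 9 sarcomere and synapse genes with the most pairs among those with pairs in all 3 libraries (right), on linear axes of different range. Agap1 has 980 sense and 19 antisense pairs, whereas Cntnap2 has 59 and 102.

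The leading genes of the sarcomere and synapse list had no such excess of sense pairs. Cntnap2, which encodes a neuronal adhesion protein, had 17, 5 and 161 pairs, of which 8, 0 and 59 were sense. Its 13 reversed or distant pairs in ES indirect included 0 sense pairs, and 8 of the 13 shared a run of 12 bases. Of its 161 pairs there, 23 lay in 1 window of 5000 bases, and all 23 were antisense. Macrod2 had 14, 5 and 138, of which 7, 1 and 70 were sense. Dlg2, a scaffold of the synapse, had 13, 6 and 109, of which 7, 2 and 53 were sense. Lrp1b had 11, 6 and 99 and Ptprd 14, 2 and 95, with 48 and 37 sense in ES indirect. In these 5, which had the most pairs of the list, the sense share in ES indirect lay between 36.6% and 51.1%. Over the 15 genes of the list with pairs in all 3 libraries it had a median of 49.5% and ran from 36.6% to 77.8%, the highest being that of Ryr1, a calcium channel of muscle, with 14 sense and 4 antisense pairs.

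Among genes of ES cells, the list gene with the most pairs was Jarid2, a partner of Polycomb repressive complex 2, with 2, 1 and 387 pairs and 379 sense in ES indirect. Tet2, which encodes an enzyme that oxidises 5-methylcytosine, had 3, 1 and 48, with 43 sense. The transcription factor gene Tfcp2l1 had 2, 1 and 38, whose strand could not be set because GENCODE vM1 does not use this name. The chromatin remodeller gene Chd7 had 2, 2 and 69 pairs, Ehmt1 1, 1 and 67, Arid2 1, 1 and 61, and the deacetylase gene Hdac1 2, 1 and 11. Of the splicing factors, Srsf4 had 1, 1 and 37 pairs, Srrm2 3, 1 and 19, and Sf3b1, a subunit of the U2 particle, 2, 1 and 8. Pairs of these genes in ES-1 and ES-2 were too few for a share.

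The presence of at least 1 pair was read against all intron-containing genes with any fragment in the library. In ES-1 this held for 36.1% of 16401 genes, against 15 of 41 splicing factors, 12 of 28 pluripotency genes, 19 of 32 chromatin regulators, 7 of 30 snoRNA hosts and 17 of 20 sarcomere and synapse genes. In ES-2 it held for 21.2% of 15924 genes, against 6 of 41, 3 of 28, 8 of 32, 2 of 31 and 15 of 20. In ES indirect it held for 76.9% of 17325 genes, against 39 of 41, 23 of 28, 32 of 32, 28 of 31 and 19 of 20. The sarcomere and synapse genes are long, with a median of 1077320 intron bases against 9960.5 for the splicing factors, and they had the highest share of genes hit of the 5 lists in ES-1 and ES-2. Sense pairs that were reversed or distant were found in 31.1% of genes in ES indirect, against 26 of 41 splicing factors, 28 of 32 chromatin regulators, 15 of 28 pluripotency genes, 15 of 31 snoRNA hosts and 6 of 20 sarcomere and synapse genes. In ES-1 such pairs were found in 0.61% of genes and in ES-2 in 0.144%, and in both in 0.0334%, or 5 of 14983 genes.

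In ES-1 some leading genes owed their place to 1 short interval. Such concentration was not limited to ES-1. Among genes with 5 or more pairs, 1 window of 5000 bases held most pairs of 21 of 436 genes in ES-1. The same held for 1 of 77 genes in ES-2 and 1592 of 7232 in ES indirect, with no allowance for gene length. Among the 10 genes with the most pairs, the part in 1 window in ES indirect ran from 26 of 821 in Wwox to 265 of 740 in Zfp704. Dnahc7b, which encodes a dynein heavy chain of cilia, had 47 pairs in ES-1, of which 42 lay in 1 window of 5000 bases, and all 42 were antisense. Trim30a had 35 pairs, of which 34 lay in 1 window and all 34 were antisense. In ES indirect it had 12 pairs, 9 of them with ends on different strands. RefSeq's table of GRCm38 lists Gm25405, a small nuclear RNA gene of 107 bases, within Trim30a, and its place was not matched to mm9. Rpl3, which encodes a protein of the large ribosomal subunit, had 29 pairs in ES-1, all sense and all in 1 window, and 28 of them overlapping. It had 0 pairs in ES-2 and 26 in ES indirect, all of them sense. RefSeq's table of GRCm38 places the snoRNA genes Snord83b and Snord43 within Rpl3, but since that build differs from mm9 the intervals were not matched. Cdh13, a cadherin gene with 17, 9 and 53 pairs, had at most 3 pairs in any window of this length. Also among the first genes of ES-2 by intron-intron pairs were Anks1b, with 10, 8 and 87 pairs in ES-1, ES-2 and ES indirect, of which 8, 4 and 54 were sense, and Sfi1, with 11, 9 and 57, of which 3, 1 and 42 were sense.

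The distance between the ends was short. The outer span, from the first to the last base of a pair, had medians of 255 bases in ES-1, 263 in ES-2 and 210 in ES indirect for intron-intron pairs, and of 292, 298 and 244 for intron-exon pairs. The 10th to 90th percentiles of intron-intron spans ran from 173 to 422 bases in ES-1, from 195 to 425 in ES-2 and from 150 to 527 in ES indirect. Intron-exon pairs had the longer median in all 3 libraries. Ends that lie close together more readily carry the same label, so the labels alone favour this direction. The test below cannot tell this from a difference in the distance of contacts. The difference of log10 medians, intron-intron minus intron-exon, was -0.059 (SD 0.0055, n = 3 libraries), and the exact sign-flip permutation test gave p = 0.25, again the smallest possible. In 66.5%, 65.9% and 68.2% of intron-exon pairs an end crossed an exon-intron boundary with at least 5 bases on either side. These counts hold pairs of both strands.

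Reversed and distant pairs had another distance profile. Part of this follows from the definitions, since distant pairs span over 2000 bases and facing pairs at most 2000, whereas reversed pairs have no limit. In ES indirect the reversed intron-intron pairs had a median span of 487 bases (interquartile range 214 to 1691) and the distant ones 5150 (3033 to 10952). At least 1 end was shorter than the full read of 90 or 100 nt in most of them, since 18.9% of reversed and 22.9% of distant pairs had both ends of full length, against 94.5% of facing pairs. The order of the ends changed with the span in ES indirect. Overlapping pairs, 53107 of them sense and intron-intron in ES indirect, were left out of these counts of order. Over 200 and up to 2000 bases, the share with RNA1 downstream rose for all pairs and fell for those with a shorter end. Up to 200 bases, RNA1 lay downstream in 4248 of all 29893 sense pairs without overlap (14.2%), so that both shares fell from this class to the next. Among sense pairs with a span over 200 and up to 500 bases, RNA1 lay downstream in 5375 of 78374 (6.86%). Between 1000 and 2000 bases it lay downstream in 2212 of 4219 (52.4%, 50.9 to 53.9), and over 2000 bases in 4228 of 8208 (51.5%, 50.4 to 52.6). Among pairs with at least 1 end shorter than the read, RNA1 lay downstream in 75.5% up to 200 bases, 63.4% over 200 and up to 500, 56.2% up to 1000 and 53.2% up to 2000 bases. Beyond 1000 bases the ends thus occurred in both orders at nearly equal numbers, up to spans over 50000 bases, where 122 pairs had each order. ES-1 had 17 of 40 sense pairs over 2000 bases with RNA1 downstream (42.5%, 28.5 to 57.8) and ES-2 6 of 11.

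**Figure D5:**
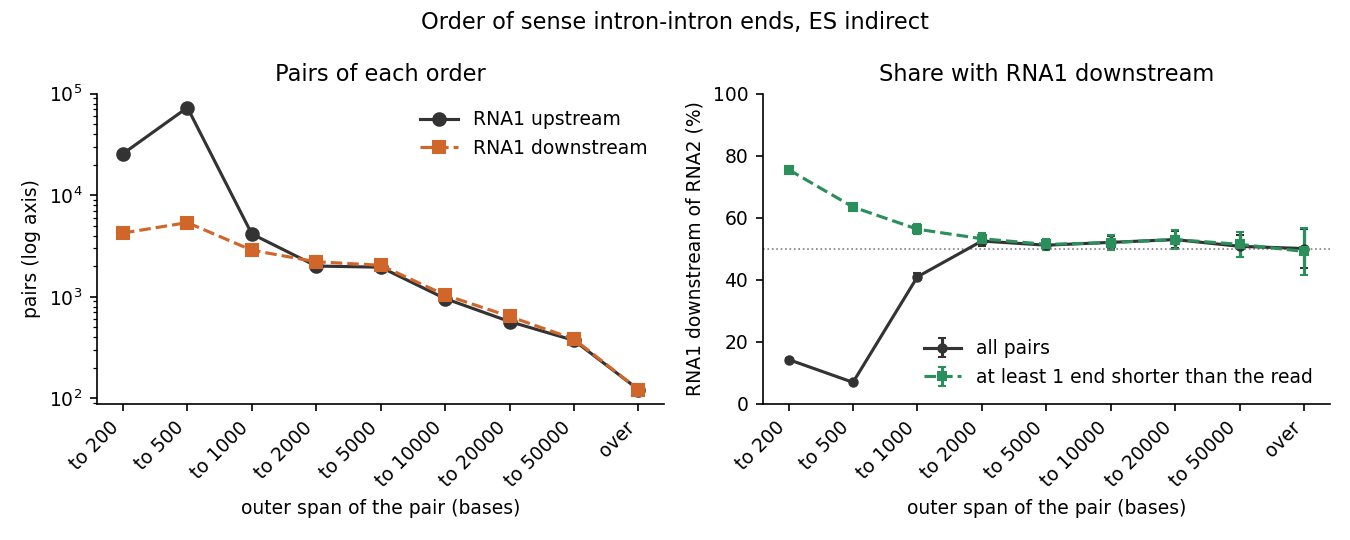
Left, number of sense intron-intron pairs of ES indirect with RNA1 upstream or downstream of RNA2 (log axis) by outer span in bases. Overlapping pairs are left out of both panels. Right, the percentage with RNA1 downstream, for all pairs and for pairs with at least 1 end shorter than the read, with 95% Wilson intervals and a dotted line at 50%. For all pairs the share is 6.86% in spans over 200 and up to 500 bases and 52.4% between 1000 and 2000 bases, and for pairs with a shorter end 63.4% and 53.2%.

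Flow cells 1 and 2 of ES indirect held 16052 and 18206 reversed or distant pairs, 8.86% and 12.98% of their intronic pairs. The reversed sense pairs of ES indirect abutted, with a gap of 0 bases, in 849 of 18938 cases (4.48%), and their gap exceeded 10000 bases in 1132 (5.98%). In 1059 of them (5.59%) the ends shared a run of 12 bases in the same direction, against 2.15% of facing pairs, and the part of read placement in repeats was not tested. In Pfkp, which encodes phosphofructokinase of platelet type, 125 of 312 pairs in ES indirect were reversed or distant, and 108 of these shared such a run. In Zfp704 the numbers were 121 of 740 and 70. In Msi2 123 of 987 pairs were reversed or distant and 0 shared such a run, and in Magi1 102 of 718 and 0. Arl15 had 158 with 41, Tiam1 98 with 45, Agap1 121 with 6, Wwox 109 with 0, and Jarid2 69 of 387 with 0. The share of such repeats among reversed or distant pairs thus varied widely between genes.

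Most pairs stayed within 1 intron. Their spans were short against these introns, whose median lengths were 16562 bases in ES-1, 17683 in ES-2 and 22423 in ES indirect, so a high share follows from the spans. Of intron-intron pairs that GENCODE vM1 places in introns, both ends lay in the same intron in 10657 of 10760 cases in ES-1 (99.0%), 4421 of 4469 in ES-2 (98.9%) and 207405 of 209386 in ES indirect (99.1%). Among sense reversed or distant pairs this held for 107 of 117 (91.5%, 85.0 to 95.3), 20 of 24 (83.3%, 64.1 to 93.3) and 21693 of 22918 (94.7%, 94.4 to 94.9). The remaining 1225 pairs of ES indirect joined neighbouring introns in 829 cases and introns farther apart in 396. Sense reversed pairs with spans over 2000 bases shared an intron in 10 of 17 cases in ES-1, 3 of 6 in ES-2 and 3687 of 4228 (87.2%) in ES indirect. Distant sense pairs of ES indirect did so in 86.6%. The sense reversed or distant pairs of ES indirect within 1 intron lay in introns with a median length of 25569 bases. This was close to the 25395 bases of the intron that holds the median intronic base of the same genes. The first intron held 25.4% of the pairs and 19.4% of the intronic bases of these genes. In ES-1 it held 21.5% of all same-intron pairs and 18.8% of the bases, in ES-2 22.3% and 18.3%, and in ES indirect 24.0% and 19.7%. Over all same-intron pairs the first intron thus held more than its share of bases in each library, a difference that was not tested. Of the 20 sense reversed or distant pairs of this kind in ES-2 it held 1 (5%), against 9.04% of the bases.

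Sense intron-exon pairs that were reversed or distant numbered 1071 in ES indirect, and both ends could be placed in the gene model for 872. Short spans favour a neighbouring exon, and reversed or distant intron-exon pairs of ES indirect on both strands had a median span of 2155 bases. An end lay across an exon-intron boundary in 201 of the 872 (23.1%). The exon was next to the intron in 626 (71.8%, 68.7 to 74.7). It was the exon just upstream in 357 (40.9%) and the exon just downstream in 269 (30.8%). Upstream exons at any distance made up 54.2% (50.9 to 57.5). ES-1 had 15 such pairs, of which 12 could be placed and 9 of these held the neighbouring exon, and ES-2 had 0.

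Against the 25108 reversed or distant pairs of ES indirect, few recurred between libraries. Of the 159 and 38 such pairs of ES-1 and ES-2 a larger part did, with 9 pairs of ES-1 in Rpl23 alone. In ES-2 the genes with sense reversed or distant pairs included Rpl23, with 2, and Arsb, with 1. Clusters of at least 2 such pairs with both ends within 200 bases of each other numbered 704 within 1 library, 8 in a pair of libraries and 3 in all 3 libraries. Of the 11 that recurred between libraries, 4 consisted of pairs that shared a 12-base run. Drosha, which encodes the nuclease that cuts primary microRNAs, held a cluster in all 3 libraries in intron 17, with RNA1 at chr15:12802432-12802521 and RNA2 at chr15:12802305-12802404 in ES-1. It had 1, 1 and 3 pairs in ES-1, ES-2 and ES indirect, and a repeated unit is seen in its printed fragments. Sipa1l3 had 1 pair in each library, with RNA2 at chr7:30231554-30231593 in each UV-crosslinked library and RNA1 at chr7:30231492-30231552 in ES-1, 1 base away. Trrap, a scaffold gene of histone acetyltransferase complexes, also had 1 pair in each library, within its 358-base intron 4. Its RNA2 began at the same base in ES-1 and ES-2, chr5:145532202-145532261 in ES-1, with RNA1 at chr5:145532347-145532417. RefSeq's table of GRCm38 lists a snoRNA gene of 129 bases, Gm23995, within Trrap and none within Sipa1l3.

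The cluster with the most pairs in both UV-crosslinked libraries lay in intron 2 of Rpl23, a gene of the large ribosomal subunit on the minus strand. It held 9 pairs with 37 lines in ES-1, 2 pairs with 6 lines in ES-2 and 0 pairs in ES indirect. The pair with the most lines had RNA1 at chr11:97641452-97641535 and RNA2 at chr11:97641537-97641591, so that the fragments together covered 139 of 140 bases and lay in reversed order. Of the 11 pairs, 9 had an RNA1 whose outer end lay within 1 base of 97641452, and 4 had an RNA2 that began at base 97641591. RNAduplex predicted 30 base pairs between the printed fragments at -36.4 kcal/mol, and 11 of them formed the run in capitals. Among all printed pairs, whose fragments differ in length, this energy ran from -64.9 in Msi2 to -29.8 in Sipa1l3. Shuffled fragments were not tested. RefSeq's table of GRCm38 lists Snora21, a snoRNA gene of 128 bases, within Rpl23, and whether the cluster covers it was not tested across builds. By GENCODE vM1, an end lay over a small RNA gene in 0 of 11776 intronic pairs of ES-1, 0 of 4964 of ES-2 and 0 of 219309 of ES indirect. Ends labelled otherwise than protein coding had been left out by the rule, so this 0 may follow from the choice of pairs. Chd3, which encodes a remodeller of the NuRD complex, held 4 pairs of ES-1 and 1 of ES-2 with spans between 264 and 266 bases, and in all 5 RNA2 began at base 69164220 of chromosome 11. Gpi1, the gene of glucose phosphate isomerase, held 2 pairs with 71 lines in ES-1 and 1 pair with 3 lines in ES indirect, with 691 bases between RNA1 at chr7:34999441-34999530 and RNA2 at chr7:35000222-35000321 in the pair with the most lines.

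Base pairing between the ends was predicted with RNAduplex over the last 40 nt of RNA1 and the first 40 nt of RNA2. The median energy of intron-intron pairs was -13.5 kcal/mol in ES-1, -13.9 in ES-2 and -15.7 in ES indirect, and that of exon-exon pairs -17.5, -19.7 and -19.1. Intronic ends were thus predicted to pair less strongly in every library, by a mean of 4.4 kcal/mol (SD 1.25, n = 3 libraries, exact sign-flip permutation test p = 0.25, the smallest possible). The median GC content differed too, with 46.2%, 46.2% and 48.8% for intronic and 55%, 58.8% and 56.2% for exonic ends. At a GC content from 50% up to 55% the medians of intron-intron and exon-exon pairs were -16.3 and -16.1 kcal/mol for ES-1, -16.8 and -16.2 for ES-2, and -17.6 and -17.1 for ES indirect. From 45% up to 50% they were -14.1 and -14.15, -13.7 and -13.85, and -15.1 and -14.7. In these classes the medians of both kinds lay closer together than over all pairs. From 55% up to 60% the medians were -18.9 for intron-intron and -18.6 for exon-exon pairs of ES-1. They were -19 and -19.5 for ES-2, and -20.5 and -19.6 for ES indirect. At 60% or more, the class with the most exon-exon pairs, exonic ends paired more strongly in the prediction. The medians there were -22.2 for intron-intron and -23.4 for exon-exon pairs of ES-1, -22.85 and -25.5 for ES-2, and -24.6 and -25.9 for ES indirect. That class has no upper limit, so it does not hold GC content equal. In ES indirect the energy of reversed pairs was -16.4, of distant pairs -16.5 and of facing pairs -15.0 kcal/mol, with a GC content of 47.5%, 48.8% and 47.5%. Pairs with over 2000 bases between the ends had -16.6 kcal/mol when RNA1 lay downstream and -16.5 when it lay upstream. All 3 exact permutation tests over libraries kept p = 0.25 after Benjamini-Hochberg adjustment.

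Little was shared between libraries at the level of single pairs. Identical coordinates occurred in 3 pairs of ES-1 and ES-2, and in 0 pairs of either with ES indirect. At the level of genes, 2092 were hit in each UV-crosslinked library, 35.2% of the genes of ES-1 and 61.6% of those of ES-2, and 2059 had pairs in all 3 libraries. Among genes with introns and fragments in both ES libraries this held for 2083 of 14983 genes, or 13.9%. The correlation of pairs per gene between ES-1 and ES-2 was 0.30 (Spearman, 13893 genes), and that of pairs per intron base 0.11. Between ES-1 and ES indirect the latter was -0.03. These are descriptions of sparse counts, since in either UV-crosslinked library most of these genes had 0 or 1 pair, and no ranking of genes is drawn from them.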

How the data were processed

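Per the labels, the deposited files hold 1 read pair per line, with position, strand, sequence, RNA type, name and region of both fragments, and no measured value (unit other). The authors removed PCR duplicates, parsed the chimeric cDNAs, mapped both fragments uniquely to mm9 and annotated them, and their processing notes name TopHat2 2.1.1. ES-1, ES-2 and ES indirect (3230403, 1312314 and 3302146 lines) were used, and MEF and brain were not used here. Python 3.11.15 (pandas 2.3.3, pysam 0.24.0) was used to apply the rule. The analysis collapsed equal coordinates and took strand, introns and gene models from GENCODE vM1. Energies are from RNAduplex of ViennaRNA 2.7.2. The arrangement rules and the duplex program were tested on simulated data. Tests were exact sign-flip permutations over 3 libraries, two-sided. ES-1 and ES-2 are separate assays of the study, but nothing says whether from separate cultures. Named were the 10 genes with the most pairs, the 5 first of each library by intron-intron pairs, the 5 first by pairs in ES-1 and ES-2 together among genes with pairs in both, genes of the lists with pairs in all 3 libraries, and, added after seeing the data, genes leading in reversed or distant pairs and genes of recurring clusters. Genes of the lists and of the recurring clusters that the text does not name are covered by those counts, and a few genes of the rule are not reported here. The members and gene lists were chosen with earlier results of these data known. Alternatives were every line, another collapse, length, strand, distance, annotation, library and flow cell.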

Additional observations from a re-analysis of the deposited data

How the results depend on the processing

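Across the alternatives run, the 3 differences tested over libraries kept the sign of their mean, but the sense difference in ES indirect turned to 1.14 points with every line counted, 0.47 over reversed and distant pairs and 3.16 on flow cell 2. The difference of log10 median spans ranged from -0.31 (reversed, distant or 2-strand pairs alone) to -0.036 (every line counted), that of sense shares from -22.8 to -12.2 percentage points, and that of energies from 3.7 to 6.1 kcal/mol. The 6.1, over pairs more than 2000 bases apart, averaged 2.4 in ES-1, 14.5 in ES-2 and 1.4 in ES indirect (SD 7.29). In ES-2 it rested on 23 intron-intron and 36 exon-exon pairs. The difference in ES indirect was thus smaller there than its 3.4 over all pairs. The sense share of ES was 51.9%, and became 61.6% with every line counted, 79.6% over reversed, distant or 2-strand pairs alone, 54.0% on flow cell 1, and 49.6% without pairs that share a 12-base run. Leaving out 1 ES library gave 50.6% to 52.4%. The sense share of ES indirect was 86.1%, and became 92.5% with every line counted, 86.6% at 30 nt or more, 85.0% at 60 nt or more, 95.9% over reversed, distant or 2-strand pairs, 84.0% and 96.0% on flow cells 1 and 2, 84.2% without a shared run, 86.7% without genes of the other strand and 86.3% without Fgfr2 and Gm20388. The intron-intron share was 91.3% in ES and 92.5% by GENCODE labels. In ES indirect it was 95.8% and became 96.1% by GENCODE labels, 95.6% with every line, 96.2% over sense pairs, 95.1% over reversed, distant or 2-strand pairs, 95.5% and 96.3% on flow cells 1 and 2, and 95.3% without a shared run. Genes with pairs in both ES libraries fell from 2092 to 968 over sense pairs, to 6 over reversed, distant or 2-strand pairs, and to 1022 and 904 on flow cells 1 and 2, which hold fewer pairs by construction. The last 3 settings (shared run, other strand, Fgfr2 and Gm20388) were chosen after seeing the data. The sense share was not recomputed over sense pairs. Leaving out 1 ES library gave an intron-intron share of 90.3% to 91.7%, a sense difference of -21.1 to -12.2 points and an energy difference of 3.7 to 4.6 kcal/mol. The causes were not tested. The 3 tests compare kinds of pair within each library. Between groups no paired analysis was possible because the replicate numbers of ES and brain, which share them, belong to different tissues and brain was not used here.

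Few reversed or distant pairs in ES-1 and ES-2 (159 and 38 with intron-exon pairs) limit what can be said of them. A count of 0 shared pairs between libraries allows up to 3. The study used a random barcode to count PCR copies once, so lines with equal coordinates can be separate molecules. The files do not keep this barcode, and amplified copies and separate molecules with equal coordinates cannot be told apart in them.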
